A study of Mus musculus with 12 samples.

Results

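Described here are 8 genes that mark the epithelium of the prostate, measured in tumours grown from a mouse prostate carcinoma line. They are the luminal keratins Krt8 and Krt18, the basal genes Krt5, Krt14 and Trp63, and the prostate genes Pbsn, Msmb and Hoxb13. Each was found in the deposited table by its symbol and is represented by a probe set carrying that symbol alone. All 8 were found, among 19937 genes so represented, and each had a single such probe set. The tumours came from TRAMP-C2Re3 cells, of which 50000 were placed in the prostates of C57BL6 mice and left for 60 days. The recipients were 6 p62 KO mice and 6 wild-type mice, with 1 tumour and 1 single-colour array per mouse. The injected cells were the same in both groups and are not described as lacking p62, so that the genotype labels concern the host. The labels give no age, no deleted exons and no batch, and do not say whether host gland was trimmed from the tumours.

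The prostate gland is lined by secretory luminal cells resting on a layer of basal cells. Luminal cells carry the keratin pair Krt8 and Krt18 and, under the control of androgens, make the proteins of the prostatic fluid, among them probasin (Pbsn) and beta-microseminoprotein (Msmb). Basal cells carry the keratin pair Krt5 and Krt14 and the transcription factor p63 (Trp63), and Hoxb13 is a homeobox factor of the prostate and hindgut. TRAMP mice, from which lines of this name derive, carry the T antigens of a simian virus behind a probasin promoter, so that in them the transgene responds to androgens.

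The RefSeq promoter table (GRCm38.p6) held 5 of the 8 genes. The 250 bases before the start of transcription are shown for 4 of them, because Pbsn is the androgen-driven gene of the set, Krt8 and Krt18 are a keratin pair whose genes lie 23873 bases apart on chromosome 15, and Krt5 is their basal counterpart. The windows are chrX:77853501-77853750 (minus strand) for Pbsn, chr15:102004343-102004592 (minus strand) for Krt8, chr15:102027966-102028215 (plus strand) for Krt18 and chr15:101712906-101713155 (minus strand) for Krt5. Capitals mark matches, on either strand, to AGAACA, the core of an androgen response element, to CAGGTG, the E-box bound by the mesenchymal repressors Zeb1 and Snai1, or to TATAAA.
Pbsn: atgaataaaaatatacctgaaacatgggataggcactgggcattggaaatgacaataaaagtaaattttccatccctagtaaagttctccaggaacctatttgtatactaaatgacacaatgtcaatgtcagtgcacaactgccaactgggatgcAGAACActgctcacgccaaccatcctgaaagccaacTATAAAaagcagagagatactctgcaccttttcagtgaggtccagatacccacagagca
Krt8: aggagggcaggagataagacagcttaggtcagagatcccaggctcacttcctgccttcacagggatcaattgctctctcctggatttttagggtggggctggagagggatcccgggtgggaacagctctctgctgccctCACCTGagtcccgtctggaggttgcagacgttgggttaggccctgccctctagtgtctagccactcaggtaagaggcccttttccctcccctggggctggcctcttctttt
Krt18: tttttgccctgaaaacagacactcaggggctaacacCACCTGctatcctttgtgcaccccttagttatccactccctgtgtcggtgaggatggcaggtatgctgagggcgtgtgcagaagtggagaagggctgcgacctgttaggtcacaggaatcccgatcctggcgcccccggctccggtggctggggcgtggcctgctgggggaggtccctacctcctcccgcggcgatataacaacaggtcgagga
Krt5: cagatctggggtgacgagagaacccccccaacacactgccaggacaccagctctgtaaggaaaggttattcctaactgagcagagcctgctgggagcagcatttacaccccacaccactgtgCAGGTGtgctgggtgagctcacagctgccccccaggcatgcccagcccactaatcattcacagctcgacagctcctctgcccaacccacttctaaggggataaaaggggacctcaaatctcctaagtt

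The Pbsn window held AGAACA from 95 to 90 bases before the start and TATAAA from 59 to 54 bases before it. AGAACA was absent from the windows of Krt8, Krt18 and Krt5, and 16.1% of all 32851 windows of this length held it. The paired motif, AGAACA followed after 3 bases by TGTTCT, contains the core. It was in 0 of the 4 windows and in 3 of all 32851. The E-box was present in the windows of Krt8 (111 to 106 bases before the start), Krt18 (214 to 209) and Krt5 (128 to 123), not in that of Pbsn, and in 17.2% of all windows. TATAAA was in 12.4% of all windows and, among the 4, only in that of Pbsn. The window listed for Krt14 lies within the span of that gene and is not described. These are matches of letters and say nothing of binding in the tumours.

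The table gives no detection calls. As a guide to the level of genes that are not thought to be transcribed in prostate, the 1035 probe sets of olfactory receptor genes were used. Their 95th percentile lay between 5.80 and 6.70 on the log2 scale over the 12 arrays, and a gene that did not exceed it on an array is described as within the olfactory background there. Probe sets differ in affinity, so that this is a rough guide and not a test of detection. The narrowest interquartile ranges, 2.15 to 2.59, belonged to wild-type hosts 2 and 5 and to KO hosts 2 and 3, against 2.70 to 2.95 for the other 8 arrays. The same 4 arrays had olfactory medians of 4.67 to 5.06, above the 4.03 to 4.32 of the other 8. In the host comparison across all 28192 probe sets, limma called 0 higher and 1 lower at an adjusted p under 0.05, or 0.00355%.

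The prostate genes Pbsn, Msmb and Hoxb13 were within the olfactory background in all 12 tumours, and Krt8 was far above it in all 12. Between them, Trp63 exceeded it in 12 tumours, Krt14 in 10, Krt18 in 5 and Krt5 in 0. Thus 3 of the 8 genes exceeded it in at least 6 tumours. With the 75th percentile as the limit the number was 6, and Pbsn and Msmb did not exceed that limit in any tumour.

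**Figure D1:**
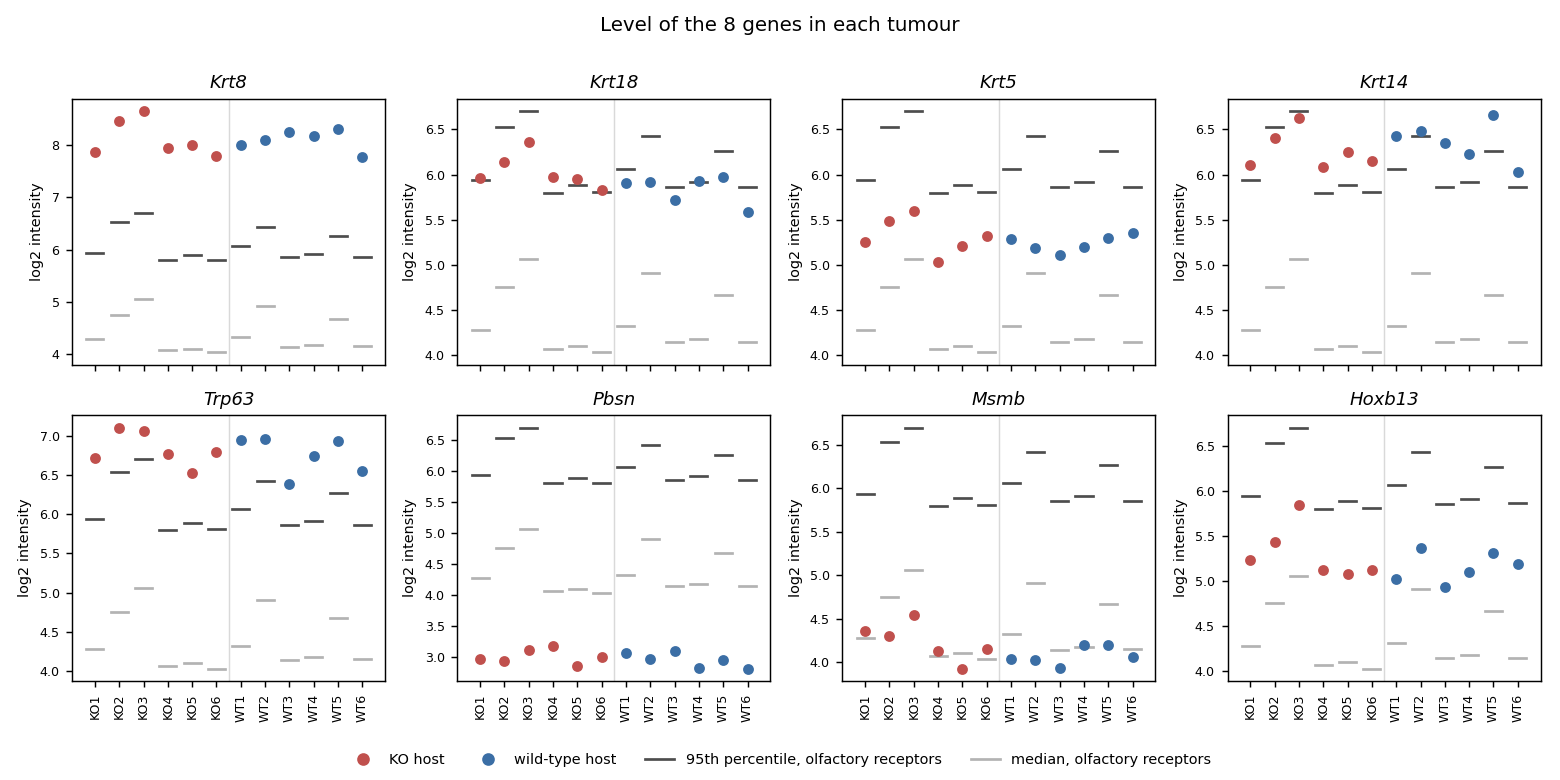
Log2 intensity (vertical axes, each panel with its own scale) of the 8 genes in each of the 12 tumours (horizontal axes), with points for KO hosts in red and wild-type hosts in blue. Dark and light bars are the 95th percentile and the median of the olfactory receptor probe sets on the same array: Krt8 lies above the dark bar in all 12 tumours, Pbsn below the light bar in all 12.

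Krt8, a keratin of simple and luminal epithelium, ranged from 7.79 to 8.65 (median 7.96) in tumours of KO hosts and from 7.76 to 8.30 (median 8.14) in those of wild-type hosts. The 2 highest tumours were KO hosts 3 and 2, at 8.65 and 8.46, while the other 4 tumours of KO hosts lay at or below 7.99 and 5 of the 6 of wild-type hosts above that. The level exceeded that of at least 99.8% of olfactory receptor probe sets in every tumour. Krt18, the partner with which Krt8 forms filaments, ranged from 5.83 to 6.36 (median 5.97) in KO hosts and from 5.58 to 5.97 (median 5.91) in wild-type hosts. It stood close to the limit of the olfactory background, between the 86.6 and 96.2 percentiles of those probe sets. Since probe sets are not comparable in level, the gap between the 2 genes does not give the ratio of their transcripts.

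Among the basal genes, Krt5 ranged from 5.03 to 5.59 (median 5.28) in KO hosts and from 5.11 to 5.36 (median 5.24) in wild-type hosts, below the limit throughout. Its filament partner Krt14 ranged from 6.08 to 6.62 (median 6.20) and from 6.03 to 6.66 (median 6.39), and the 2 tumours below the limit were KO hosts 2 and 3, in which that limit was highest. Trp63, the regulator of basal identity, ranged from 6.52 to 7.10 (median 6.78) and from 6.38 to 6.95 (median 6.83). Its place among the olfactory receptor probe sets was between the 97.3 and 99.4 percentiles, so that a few of these reached its level in each tumour. Groups overlapped in all 3 genes.

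Pbsn was at 2.86 to 3.18 (median 2.99) in KO hosts and 2.81 to 3.09 (median 2.96) in wild-type hosts. Between 1.0% and 10.4% of olfactory receptor probe sets were at or below it. Msmb ranged from 3.92 to 4.54 (median 4.22) and from 3.93 to 4.20 (median 4.05), between the 20.3 and 55.7 percentiles of olfactory receptor probe sets. Hoxb13 ranged from 5.08 to 5.85 (median 5.18) and from 4.94 to 5.37 (median 5.14), between the 69.9 and 86.4 percentiles. Its 4 highest tumours were those on the 4 arrays of narrow range.

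Of all 19937 genes, 59.6% exceeded the olfactory background in at least 6 tumours, 42.3% in all 12 and 34.3% in 0, beside 3 of the 8 in at least 6. In the wider lists 5 of 12 luminal and 8 of 17 basal genes exceeded it in at least 6. Of the 20 epithelial adhesion and splicing genes, 6 exceeded it in at least 6 tumours and 14 in 0. Epcam, an epithelial surface protein, ranged from 4.32 to 5.16 and Cdh1, which encodes E-cadherin, from 5.45 to 6.06, and neither exceeded it in any tumour. All 12 mesenchymal genes exceeded it in all 12 tumours. Vim, the intermediate filament of mesenchymal cells, ranged from 12.19 to 12.42 and the repressor Zeb1 from 10.19 to 10.90. The samples are 12 tumours without normal prostate or cultured cells, so that a loss of epithelial RNA is not shown. In whole tumours, the number of epithelial cells and the RNA per epithelial cell cannot be told apart. Nor can injected cells and host stroma as the source of the mesenchymal RNA.

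For none of the 8 genes did the difference between hosts pass the test used. Differences in log2 level, KO hosts minus wild-type hosts, lay between -0.096 and 0.20 with a median of 0.076, beside a median of 0.024 over all probe sets. By limma with Benjamini-Hochberg adjustment over all 28192 probe sets, 0 of 8 passed (adjusted p = 0.994 to 0.996), where 0.00355% of all probe sets did. At an unadjusted p under 0.05 there were 0 of 8, beside 2.39% of all probe sets. The groups overlapped in all 8 genes, and 0.145% of all probe sets did not overlap.

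Krt18 came closest, at 6.03 ± 0.19 (SD, n = 6) in KO hosts against 5.84 ± 0.15 (SD, n = 6). The difference was 0.20 (SE 0.11, 95% interval -0.032 to 0.42). The exact permutation test over all 924 assignments gave a two-sided p of 0.0801, the smallest it can give being 0.00216. Without KO hosts 2 and 3 the difference was 0.089. Krt8 stood at 8.12 ± 0.35 against 8.10 ± 0.20, a difference of 0.018 (95% interval -0.31 to 0.35, exact permutation p = 0.909) that turned to -0.20 without KO hosts 2 and 3. The luminal keratin pair therefore had no common direction once these tumours were left out.

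Of the basal genes, 2 had a difference above 0 and 1 below, and without KO hosts 2 and 3 all 3 were below 0, with 0 passing. Krt14 stood at 6.27 ± 0.21 against 6.36 ± 0.22, a difference of -0.096 (95% interval -0.36 to 0.17, exact permutation p = 0.450), which was -0.22 without KO hosts 2 and 3. The difference was 0.076 for Krt5 (95% interval -0.14 to 0.29, exact permutation p = 0.420) and 0.077 for Trp63 (95% interval -0.20 to 0.36, exact permutation p = 0.584). Both turned without KO hosts 2 and 3, to -0.037 and -0.050. With wild-type hosts 2 and 5, also arrays of narrow range, left out as well, Trp63 did not turn, at 0.045. Krt5 was then at -0.036 and Krt14 at -0.12.

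The prostate genes were compared at levels within the background, where a difference in transcript may not show. Msmb stood at 4.23 ± 0.21 against 4.07 ± 0.10, a difference of 0.16 (95% interval -0.066 to 0.38, exact permutation p = 0.132), or 0.067 without KO hosts 2 and 3. Hoxb13 differed by 0.15 (95% interval -0.14 to 0.44, exact permutation p = 0.323), or -0.015 without them. It did not turn without all 4 arrays of narrow range, at 0.078. Pbsn differed by 0.059 (95% interval -0.13 to 0.24, exact permutation p = 0.383), or 0.053 without KO hosts 2 and 3. None of the 95% intervals of the 8 genes reached beyond -0.36 or 0.44.

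**Figure D2:**
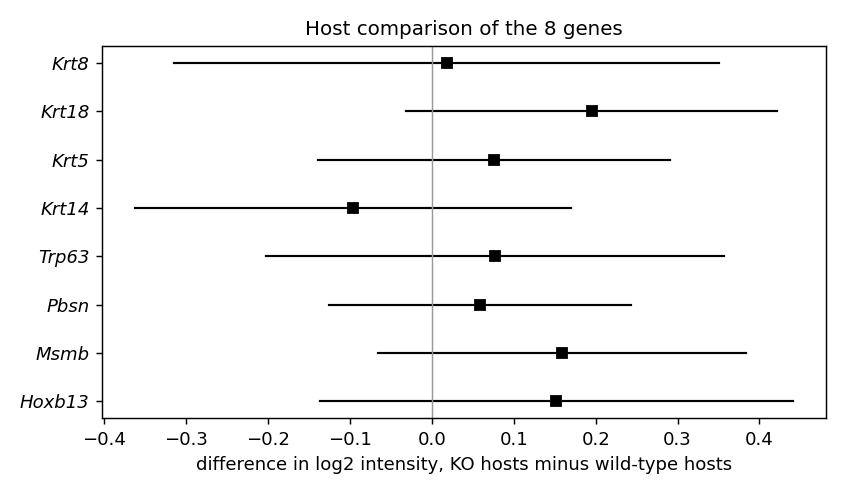
Difference in mean log2 intensity between tumours of KO hosts and of wild-type hosts (horizontal axis) for the 8 genes, with squares for the estimate and lines for limma's 95% interval, 6 tumours per group. All 8 intervals include 0, and the largest estimate is 0.20 for Krt18.

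The wider gene lists around the 8 gave the same counts of 0. Of all probe sets 57.2% had a difference above 0, with a median of 0.024, beside which the following counts stand. Of 15 measured genes for steroid receptor cofactors, chaperones and androgen synthesis, 0 passed in either direction, 5 had a difference above 0 and 10 below, with a median of -0.034. The pioneer factor Foxa1 differed by 0.024 (5.90 against 5.88), and the steroid receptor chaperone Fkbp4 by -0.26, or 0.0078 without KO hosts 2 and 3. The 26 androgen response genes had a median of 0.027, with 16 above 0 and 0 passing. The androgen-induced protease Tmprss2 was within the background in all 12 tumours (5.07 to 5.90) and differed by 0.074. Fkbp5, a target of androgens and glucocorticoids, was above it in all 12 (7.88 to 8.77) and differed by -0.24 (SE 0.16), or -0.094 without KO hosts 2 and 3.

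Of the androgen response genes, 2 were higher and 1 lower at an unadjusted p under 0.05 without passing (adjusted p = 0.994 by limma for each), beside 1.28% higher and 1.11% lower among all probe sets. Ndrg1, which also responds to hypoxia, stood at 8.59 ± 0.55 against 7.85 ± 0.38, and KO host 6 was its highest tumour at 9.64. Mme, a surface peptidase, stood at 5.56 ± 0.18 against 5.20 ± 0.22, within the olfactory background throughout. Pmepa1, also a TGF-beta target, stood at 9.97 ± 0.19 against 10.25 ± 0.22 and was named after its value was seen. The differences of Ndrg1, Mme and Pmepa1 were 0.74, 0.36 and -0.27. They were 0.92, 0.40 and -0.32 without KO hosts 2 and 3, again without passing. With all 4 arrays of narrow range left out they were 1.10, 0.38 and -0.29, also without passing.

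In the luminal list 10 of 12 genes had a difference above 0, with 0 passing and a median of 0.075, and in the basal list 13 of 17, with 0 passing and a median of 0.067. Without KO hosts 2 and 3 the numbers above 0 were 3 of 12 and 5 of 17. Their smallest unadjusted p besides that of Krt18 belonged to Cd24a, a luminal surface protein (9.21 against 9.66), and to the basal-list genes Cd44 (9.33 against 9.56) and Aqp3 (6.02 against 5.85). The differences of Cd44 and Aqp3 without KO hosts 2 and 3 were -0.017 and 0.036, in place of -0.23 and 0.17. Krt15, a basal keratin, stood within the background in all 12 tumours at 5.13 to 5.66. The adhesion and splicing list had 16 of 20 above 0 and a median of 0.047. Its splicing regulator Esrp2 differed by -0.16 and its small GTPase Rab25 by 0.21, or 0.084 without KO hosts 2 and 3. Epcam differed by 0.019 and Cdh1 by 0.011. Without KO hosts 2 and 3 only 6 of the 20 were above 0, where 45.5% of all probe sets were.

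Keratins as a family followed the same pattern. Of 52 keratin genes, 47 had a difference above 0, beside 57.2% of all probe sets, and 0 passed. Without KO hosts 2 and 3 the number above 0 was 20 of 52, beside 45.5% of all probe sets. It was 22 when the 4 arrays of narrow range were all omitted, beside 47.9% of all probe sets. The hair keratins Krt71 (5.71 against 5.47) and Krt86 (4.11 against 3.83) had an unadjusted p under 0.05. Their differences were 0.17 and 0.14 without KO hosts 2 and 3, and 0.16 and 0.18 without all 4 arrays of narrow range. Both keratins were named after their values were seen, and neither exceeded the olfactory background in any tumour. In 33 of the 52 the level was within that background in all 12 tumours. The keratins that varied most were Krt19, Krt7 and Krt24, with ranges of 2.26, 1.67 and 1.32 over the 12 tumours, and Krt24 did not exceed the background in any.

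Single tumours had high levels of some gland or urothelial genes. Sbp, a spermine-binding secretory protein of the prostate, was at 6.05 in wild-type host 4 and at 3.07 to 3.66 in the other 11 tumours. In the same tumour the secreted inhibitor Spink1 was at 5.82, against 3.21 to 4.20 elsewhere, and 9530002B09Rik, of the same list and named after its values were seen, at 6.39, against 4.45 to 4.94 elsewhere. Pbsn was at 2.82 there, near its lowest, and Msmb at 4.20, the highest of its group but below 3 tumours of KO hosts. Sbp and 9530002B09Rik exceeded the background in that tumour alone, and Spink1 was within it in all 12. Tgm4 (4.30 to 4.78) and Svs2 (3.84 to 5.29) were within it in all 12 as well. Over the 20 genes of the secretion list, the mean level of wild-type host 4, at 4.67, was the highest of its group but lay below that of KO host 3, at 4.83. The 2 genes of this list that exceeded the background in at least 6 tumours were Sbpl (6.31 to 7.43) and Crabp1 (5.91 to 7.24), both named after their values were seen. Of the list, 0 genes passed in the host comparison, with a median of 0.090 and Ceacam10 at 0.26. Leaving out KO hosts 2 and 3 gave 0.13 for Ceacam10, and 0.012 in place of 0.32 for Svs2. Leaving out all 4 arrays of narrow range gave 0.23 for Ceacam10 and 0.027 for Svs2. Without wild-type host 4 the Sbp difference turned from -0.34 to 0.12 and that of Spink1 from -0.14 to 0.21, while that of 9530002B09Rik went from -0.32 to -0.038.

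Upk1b, a membrane protein of the urothelium that lines the bladder, was at 9.25 in KO host 5, 7.26 in wild-type host 2 and 6.66 in wild-type host 4, and at 5.47 to 6.17 in the other 9 tumours. Krt19, a keratin of luminal and urothelial cells, was highest in the first 2 of these, at 8.09 and 8.13, against 5.87 to 7.21 in the other 10. Krt8 was at 7.99 and 8.09 in those 2 tumours, in the middle of its range, and Msmb had its lowest level of all 12 tumours, 3.92, in KO host 5. Krt7 reached 7.91 to 7.95 in KO hosts 3, 4 and 5 and 6.28 to 7.40 in the other 9. Of 8 urothelial genes 2 exceeded the background in at least 6 tumours, Upk2 and Snx31, and 0 passed in the host comparison. Upk3b differed by 0.20 and Krt20 by 0.16, the latter within the background throughout. These were 0.037 and 0.046 when KO hosts 2 and 3 were left out, and 0.13 and 0.027 without all 4 arrays of narrow range. Whether host gland or bladder wall was part of these specimens was not tested.

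**Figure D3:**
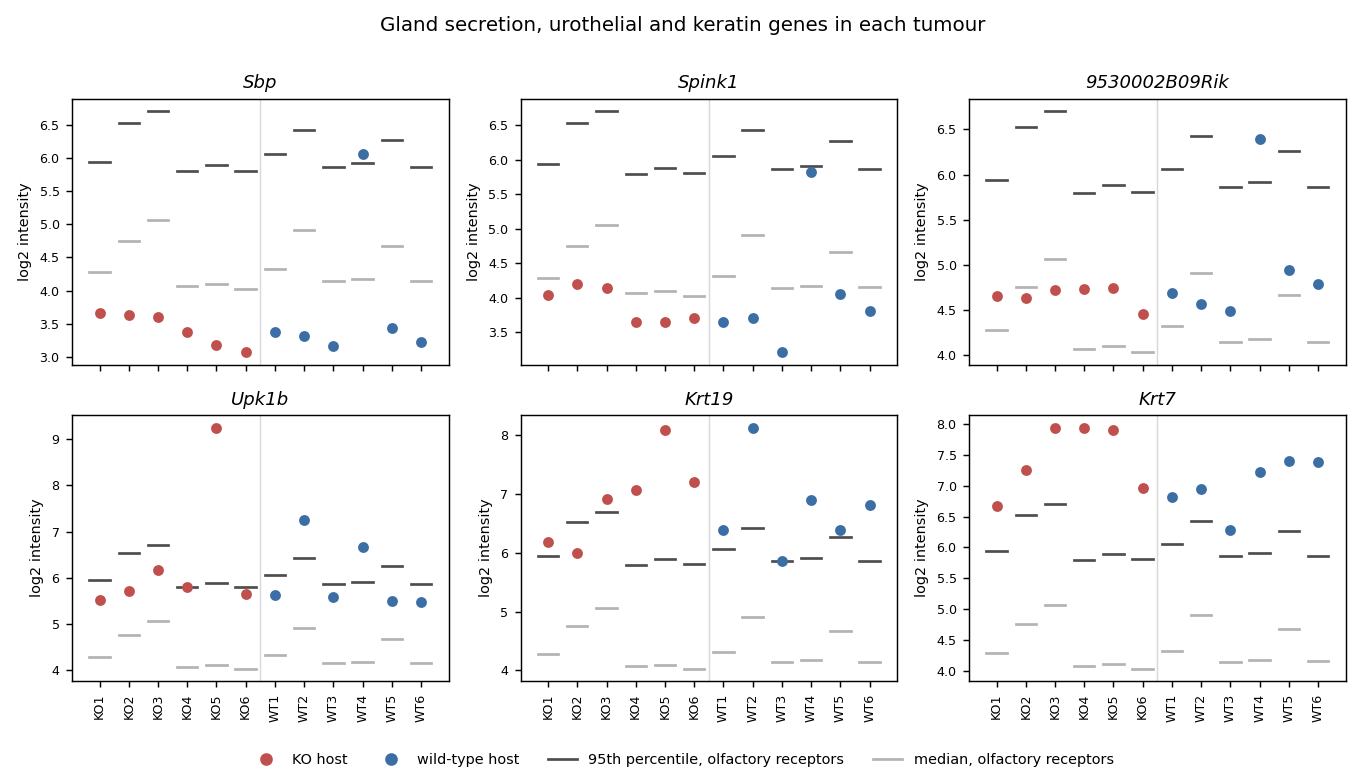
Log2 intensity (vertical axes, each panel with its own scale) of 3 gland secretion genes and of Upk1b, Krt19 and Krt7 in each of the 12 tumours (horizontal axes), with KO hosts in red and wild-type hosts in blue. Dark and light bars are the 95th percentile and median of olfactory receptor probe sets: wild-type host 4 stands apart in the upper row, at 6.05, 5.82 and 6.39, and KO host 5 in Upk1b, at 9.25.

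Markers of other cells gave 0 passing genes among 12 mesenchymal, 9 neuroendocrine and 16 genes of other cell types, with medians of -0.027, 0.067 and 0.054. Twist2, a mesenchymal regulator whose groups did not overlap, differed by 0.46 and Cd79a, of the B cell receptor, by 0.63, without passing (adjusted p = 0.994 by limma for both). Cd79a and desmin (Des) were within the olfactory background in all 12 tumours. Desmin differed by 0.21, the neuroendocrine granule protein Chga by 0.19 and the neuroendocrine factor Insm1 by 0.24. The differences of desmin, Chga and Insm1 were 0.19, 0.21 and 0.019 without KO hosts 2 and 3. Leaving out KO host 5 gave 0.12 for Chga.

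The 4 arrays with raised olfactory medians also held many of the highest levels of the 8 genes, except for Pbsn. On the 4 arrays of narrow range Hoxb13 was at 5.31 to 5.85, above all of the other 8 (4.94 to 5.23). Krt8, Krt14 and Trp63 were above all of the other 8 on 3 of the 4 arrays, Krt18 and Krt5 on 2, Msmb on 1 and Pbsn on 0. Since these arrays formed a separate group in their olfactory median, no correlation with it is given over all 12. Within the other 8 tumours, Pearson's r between gene and olfactory median lay between -0.061 and 0.41, and 0 of 8 passed (permutation test, adjusted over the 8). Host groups had like olfactory medians, 4.38 ± 0.43 (SD, n = 6) for KO hosts and 4.39 ± 0.32 (SD, n = 6) for wild-type hosts. With the interquartile range as a covariate 0 of the 8 genes passed, and the difference of Krt18 was 0.16, that of Hoxb13 0.093 and that of Krt8 -0.046.

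**Figure D4:**
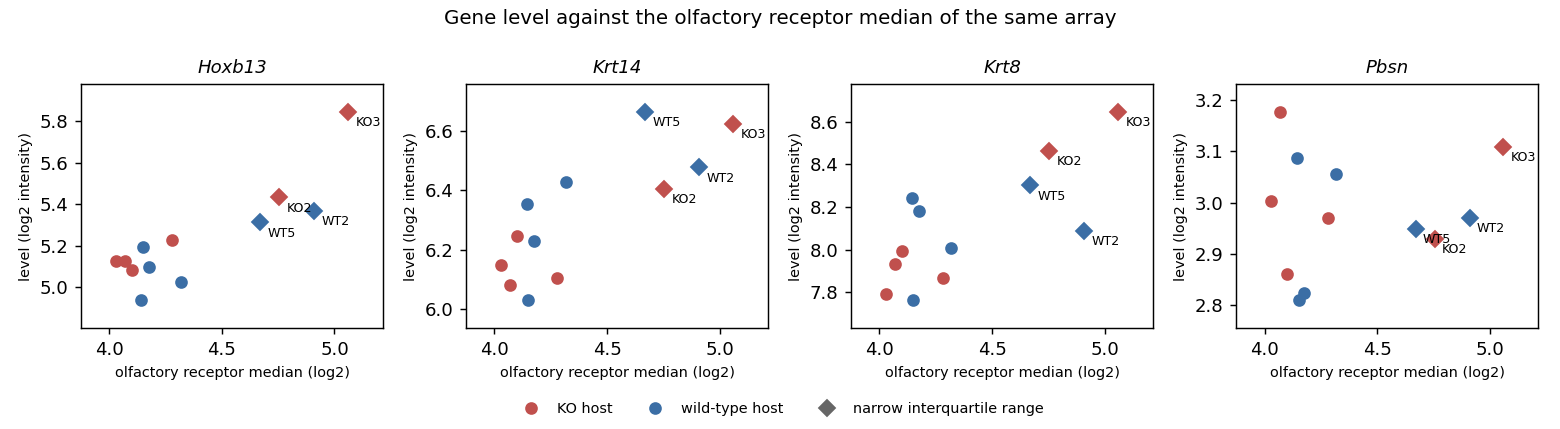
Log2 level of Hoxb13, Krt14, Krt8 and Pbsn (vertical axes, each panel with its own scale) against the median log2 level of olfactory receptor probe sets on the same array (horizontal axes), 1 point per tumour. Diamonds are the 4 arrays of narrow interquartile range: all 4 lie above the other 8 in Hoxb13 and none does in Pbsn.

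Among the 28 pairs of the 8 genes, 27 had a positive Pearson's r over 12 tumours, with a median of 0.55. By a permutation test with 100000 resamples, 8 pairs passed at an adjusted p under 0.05 over the 28 relations, and 0 passed by Spearman's rho. Without the 2 tumours farthest from the median of the first gene of a pair, the median r was 0.28. Within the 8 tumours of wider range it was 0.14, with 17 of 28 positive and 0 passing. The median r thus fell when the 4 arrays of narrow range were left out. Fewer tumours also make a relation harder to call, so the count of 0 within the 8 does not show what the relations rested on. After quantile normalization, with all 12 tumours kept, the median r was 0.089, with 17 of 28 positive and 0 passing. What the relations rested on was not tested.

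The keratin filament partners show the pattern. Krt8 and Krt18 had r = 0.73 (permutation p = 0.00641, adjusted p = 0.0282) and rho = 0.55 (permutation p = 0.0663, adjusted p = 0.223), but r = 0.31 without KO hosts 2 and 3 and 0.17 within the 8 tumours. Krt5 and Krt14 had r = 0.41 (permutation p = 0.180, adjusted p = 0.252) and rho = 0.22 (permutation p = 0.482, adjusted p = 0.664), with r = -0.040 without KO hosts 3 and 4 and -0.10 within the 8. Krt8 and the basal keratin Krt14 had r = 0.80 (permutation p = 0.00207, adjusted p = 0.0282) and rho = 0.81 (permutation p = 0.00201, adjusted p = 0.0563), with 0.79 without KO hosts 2 and 3 and 0.70 within the 8 (adjusted p = 0.403 by permutation). Msmb and Hoxb13 had r = 0.78 (permutation p = 0.00375, adjusted p = 0.0282) and rho = 0.64 (permutation p = 0.0278, adjusted p = 0.200), with 0.59 without KO hosts 1 and 3 and 0.73 within the 8 (adjusted p = 0.367 by permutation). After quantile normalization, with all tumours kept, r was 0.46 for Krt8 and Krt18 and -0.55 for Krt5 and Krt14. It was 0.61 for Krt8 and Krt14 and 0.14 for Msmb and Hoxb13. Krt14 and Hoxb13 had r = 0.54 over all tumours. Within the 8 theirs was the lowest r, -0.85 (permutation p = 0.00733, adjusted p = 0.205). After quantile normalization their r within the 8 was -0.97 (adjusted p = 0.00308 by permutation).

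**Figure D5:**
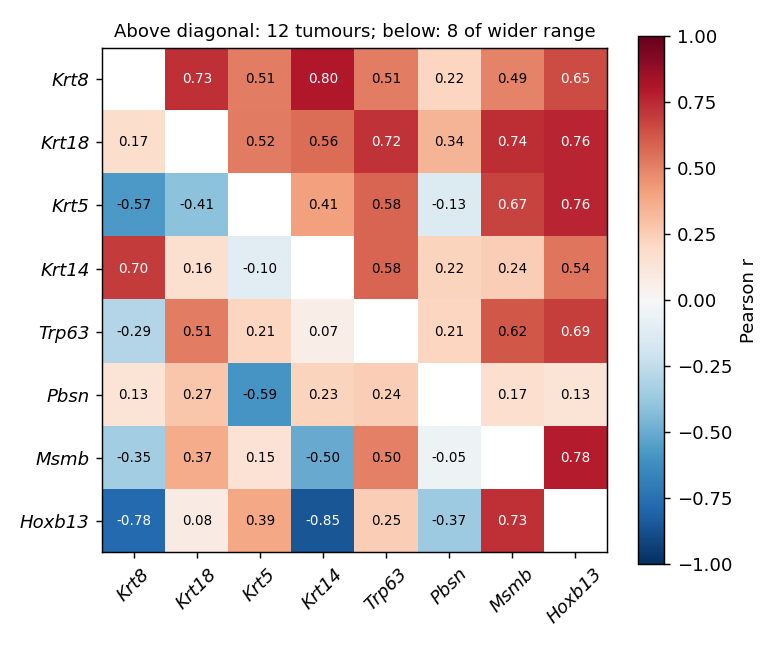
Pearson's r for each pair of the 8 genes (rows and columns), over all 12 tumours above the diagonal and within the 8 tumours of wider interquartile range below it, coloured from blue (-1) to red (1). Above the diagonal 27 of 28 are positive, below it 17.

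The genes whose levels followed each member most closely were ranked by Pearson's r over 12 tumours. For Hoxb13 they were BC030500, the olfactory receptor Olfr1039 and Cidea (r = 0.98, 0.97 and 0.97), and for Trp63 they were Espn, the olfactory receptor Olfr339 and Mrgprd (0.95, 0.94 and 0.94). For Krt8 they were Hepacam2, Hsf4 and Fam117a (0.96, 0.95 and 0.94), for Krt18 Gm10614, Mapk8ip2 and Plaat5 (0.96, 0.95 and 0.94), for Krt5 Sox15, Astl and H1f7 (0.96, 0.95 and 0.94) and for Krt14 Tcf15, Fzd3 and Frzb (0.95, 0.95 and 0.94). For Msmb they were Opalin, Pnkd and Grin3b (0.95, 0.93 and 0.92) and for Pbsn Epdr1, Bet1l and H2-K2 (0.90, 0.89 and 0.87). These are the highest of 19936 values for each member, over tumours that share the spread in array range, and are descriptions without a test. None of the 8 members was among the 3 closest genes of another.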

How the data were processed

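RNA of 12 tumours was amplified with the Ovation Pico WTA System and hybridised to 1 biotin-labelled array each, per the labels' protocols. The authors deposited log2 values for each probe set, summarised with RMA, per the submitters' processing notes, which give no version. The table had 34760 rows, of which 6568 with the lowest identifiers and no gene were taken as controls and 28192 tested. A single symbol was carried by 21640 of these, several by 1321 and none by 5231. Where a gene had several such probe sets, the one of highest mean was used.

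The comparison of hosts used limma (version 3.58.1, R 4.3.3) without covariates, two-sided and adjusted over all tested probe sets, and each of the 8 genes by an exact permutation test. The limma fit was tested on simulated data. The members, lists and tests were chosen with earlier results of these data known. The genes named are the 8 members, 16 anchor genes where measured, the 2 with the smallest p of each list, the 3 keratins of widest range and the 3 closest genes of each member. Others are said to be chosen afterwards. Precision is set by the number of arrays, as arrays carry no read depth. Nothing in the labels says that the mouse numbers pair the hosts. Plots used matplotlib 3.10.9.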

Additional observations from a re-analysis of the deposited data

Results flagged for a closer look

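The named genes gave 92 sets of 6 tumours. In 9 of these a single tumour lay apart. Chance gives about 1 in 20 for genes chosen without regard to spread. That does not hold for 9530002B09Rik, named after its values were seen, or for Krt24, named for its wide range. Nor does it hold for Ndrg1, Esrp2 and Cd79a, named for a small p, which depends on the spread within groups. In wild-type host 4 the genes that lay apart were Sbp at 6.05, Spink1 at 5.82 and 9530002B09Rik at 6.39, each above the other 5 of the group. KO host 5 stood apart in Upk1b at 9.25 and KO host 6 in Ndrg1 at 9.64. KO host 3, on the array of narrowest range, was the highest of its group in Tgm4 at 4.78 and in Esrp2 at 6.38. KO host 1 was the lowest of its group in Cd79a at 4.58, and wild-type host 3 the lowest of its group in Krt24 at 4.31. None of the 8 members had such a tumour in either group.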

How the results depend on the processing

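Over 25 alternatives (24 where the filter on dim probe sets removed the gene), 0 of the 8 members passed in any, with smallest adjusted p of 0.644 for Krt14 to 0.885 for Trp63 by limma. That filter removed Krt18, Krt5, Pbsn, Msmb and Hoxb13. Krt18, Krt14, Pbsn and Msmb kept their direction throughout.

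Differences turned as follows, and the cause was not tested. Array weights gave Krt8 -0.13, Krt5 -0.032, Trp63 -0.054, Foxa1 -0.046, Tmprss2 -0.071, Krt15 -0.063, Epcam -0.12, Cdh1 -0.087, Krt24 -0.10 and Crabp1 -0.043. A common median gave Krt8 -0.017, Foxa1 -0.010, Epcam -0.016 and Cdh1 -0.024. The interquartile range as a covariate gave Krt8 -0.046, Foxa1 -0.018, Epcam -0.044 and Cdh1 -0.039. Quantile normalization gave Foxa1 -0.021, Krt15 -0.0088, Epcam -0.031 and Cdh1 -0.037, and -0.050 for the r of Krt5 and Hoxb13. Relations are listed here only if they were called over all 12 tumours. Of all 28 relations, 17 had a positive r after quantile normalization, in place of 27. Without KO hosts 2 and 3 the values were Krt8 -0.20, Krt5 -0.037, Trp63 -0.050, Hoxb13 -0.015, Foxa1 -0.079, Tmprss2 -0.16, Krt15 -0.066, Epcam -0.17, Cdh1 -0.12, Fkbp4 0.0078, Zeb1 0.024, Krt24 -0.14 and Sbpl -0.00018. Without all 4 arrays of narrow range they were Krt8 -0.15, Krt5 -0.036, Tmprss2 -0.072, Krt15 -0.060, Epcam -0.10, Cdh1 -0.038 and Krt24 -0.087. Leaving out each tumour in turn gave -0.088 to 0.083 for Krt8, -0.037 to 0.078 for Foxa1, -0.041 to 0.13 for Tmprss2, -0.46 to 0.12 for Sbp, -0.31 to 0.21 for Spink1, -0.099 to 0.0066 for Tgm4, -0.073 to 0.44 for Krt19, -0.023 to 0.081 for Krt15, -0.091 to 0.11 for Epcam, -0.043 to 0.078 for Cdh1, -0.25 to 0.58 for Upk1b and -0.018 to 0.25 for Krt24.

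The count of probe sets called lower was 0 instead of 1 with all rows tested, with a common olfactory receptor median (chosen after the values were seen), with the dim filter and without KO hosts 2 and 3, and 0 to 1 when each tumour was left out. The mouse number as a replicate block also gave 0. Deviations of tumours with the same number correlated between -0.55 and 0.37, with 0 of 6 highest for their own number. These are 6 values from whole arrays that differ in range, so they cannot decide whether the numbers pair the tumours. With the 75th percentile, 6 of the 8 members exceeded the background in at least 6 tumours instead of 3. Of the 28 relations, 8 were called in all 12 tumours and 0 within the 8 tumours of wider range. Over all 12 tumours, 0 were called after quantile normalization and 25 after subtraction of the array's olfactory median. That subtraction was an alternative chosen after the values were seen, and it adds a shared term to every gene.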
